A study of Mus musculus with 8 samples.

Results

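Retroelement RNA can form double strands in the cytoplasm, and the genes that sense such RNA and answer it through interferon were examined in mouse embryonic stem cells (mESCs) whose H3K9 methyltransferases had been removed or inhibited. The 38 genes were taken from a written list of nucleic acid sensing and interferon response genes, drawn up with earlier results of these data known but by function and not by a value threshold, and all 38 are among the 24062 genes in the count files. RNA-seq covered 4 conditions with 2 biological replicates each. All 8 libraries came from a single line of Setdb1 conditional KO mESCs (#33-6), so no condition was repeated in another clone, and all cells were grown on gelatin with LIF. WT mESCs were this line without any treatment. UNC0642-treated mESCs received 2 µM UNC0642, a catalytic inhibitor of the H3K9 methyltransferases G9a and GLP, for 3 days. Setdb1 KO mESCs received 800 nM 4-hydroxytamoxifen (4-OHT), which triggers deletion of the floxed gene, for 5 days. UNC0642-treated Setdb1 KO mESCs, called the combined condition below, received 800 nM 4-OHT for 2 days and then 2 µM UNC0642 for 3 days by their own label, although the general protocol gives 5 days of 4-OHT for all deletions. No library of 4-OHT-treated cells that keep Setdb1 was analysed here, so 4-OHT itself and the loss of Setdb1 cannot be told apart.

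The RIG-I-like receptors RIG-I (encoded by Ddx58), MDA5 (Ifih1) and LGP2 (Dhx58) bind double-stranded RNA in the cytoplasm, and RIG-I and MDA5 signal through the mitochondrial adaptor MAVS to the transcription factors IRF3 and IRF7. These switch on interferon genes such as Ifnb1, secreted interferon binds its receptor, and a complex that holds STAT2 and IRF9 then binds the interferon-stimulated response element (ISRE) in front of interferon-stimulated genes. Pluripotent cells are known for a weak interferon response, and they hold some antiviral genes, the Ifitm genes among them, at a constant level instead. SETDB1 silences endogenous retroviruses and young LINE elements in mESCs, which is why the question whether retroelement RNA goes with an interferon response arises here.

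Library totals ran from 11702590 to 26807807 counts. Counts were scaled by TMM factors and are given as normalized CPM (counts scaled to the library total), where 3 counts, taken as the detection floor of a library, correspond to 0.108 to 0.311. This floor and the intervals below cover counting error only. A feature is called here when its Benjamini-Hochberg adjusted p in edgeR's quasi-likelihood test over 15313 genes and 932 transposable element subfamilies was under 0.05, with no fold change threshold. Libraries with the same replicate number deviated together, so values from the same test with the replicate number as a block are given where they change a call. The p-values measure the spread between 2 cultures per condition. In bulk RNA, fewer expressing cells and less RNA per cell cannot be told apart. All 8 embryonic stem cell markers were above 3 counts in every condition, with summed levels between 3751 and 5729. Setdb1 was at 169 and 127 CPM in WT, 130 and 86.4 with UNC0642, 47.3 and 51.0 in Setdb1 KO, and 61.1 and 34.1 in the combined condition. It was called lower in both KO conditions than in WT only when the replicate block was included (adjusted p = 0.181 and 0.0746 without it, 0.0164 and 0.00593 with it).

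Retroelement RNA was far higher in both KO conditions. Interferon beta and 10 other genes of the 38, among them Isg15, Ifit1 and Cxcl10, had at most 24 counts in any library. Low counts are how these genes were set apart, so their low level is no contrast to the retroelements. Other interferon-stimulated genes of the list, such as Bst2 and the Ifitm genes, were well above the floor and are described further on. LTR elements took 1.09% and 0.921% of all counts in WT, 1.90% and 1.44% with UNC0642 alone, 5.43% and 5.82% in Setdb1 KO, and 9.12% and 6.73% in the combined condition. LINE elements took 0.618% and 0.417%, 1.08% and 0.768%, 3.33% and 1.48%, and 5.39% and 2.74% in the same order. Every treated library was above both WT libraries in both classes. The normalized level of LTR elements was 1.66, 5.86 and 9.12 times that of WT in the 3 treated conditions, and that of LINE elements 1.77, 5.07 and 9.22 times. Of 932 subfamilies, 46 were called higher in Setdb1 KO and 113 in the combined condition (189 and 383 with the replicate block). These counts rest on the WT libraries: without WT replicate 1 both were 0, without WT replicate 2 they were 0 and 8, without Setdb1 KO replicate 1 the first was 16, and without replicate 1 of the combined condition the second was 61. With UNC0642 alone edgeR called none without the block, and DESeq2 on all 8 libraries called 4 higher. MMERVK10C-int, the internal part of a family of endogenous retroviruses, was higher by 7.08 (SE 0.78) and 7.01 (SE 0.78) on the log2 scale in the 2 KO conditions (edgeR adjusted p = 0.00613 and 0.00358), and IAPEz-int by 4.35 and 4.80 (adjusted p = 0.0166 and 0.00700).

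Too few counts in too many libraries kept 11 genes from being tested, so their low level is how they were set apart and not a result. They are the sensors Ifih1 and Zbp1, the interferon regulator Irf7, interferon beta itself (Ifnb1), the chemokine gene Cxcl10, and the interferon-stimulated genes Isg15, Ifit1, Ifit3, Ifi44, Mx1 and Mx2. Ifnb1 had 1 count in WT replicate 2 and 0 counts in the other 7 libraries. Isg15, which encodes a ubiquitin-like protein and is among the genes most strongly induced by interferon elsewhere, had 0 and 3 counts in WT, 0 and 5 with UNC0642, 4 and 7 in Setdb1 KO, and 0 and 7 in the combined condition. Both Setdb1 KO libraries (0.169 and 0.385 CPM) lay above both WT libraries (0 and 0.108 CPM), while the other treated conditions overlapped WT. Ifit1, whose product binds RNA without a proper cap, had 1 and 7, 3 and 4, 4 and 6, and 1 and 12 counts in the same order. Irf7, the regulator that amplifies interferon production, had 0 and 9, 0 and 3, 2 and 7, and 0 and 6 counts. Ifih1, the sensor of long double-stranded RNA, had 3 and 4, 3 and 3, 6 and 4, and 0 and 8 counts. Irf7 and Ifit1 overlapped WT in every treated condition, and Ifih1 lay below WT with UNC0642 (0.141 and 0.108 against 0.261 and 0.144 CPM). Cxcl10 had 3 and 9 counts in WT, 5 and 10 with UNC0642, 4 and 5 in Setdb1 KO, and 5 and 24 in the combined condition. This is 0.261 and 0.325 CPM in WT against 0.519 and 0.882 in the combined condition, the only pair of the Cxcl10 values that lies above both WT libraries.

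Together the 11 genes had 10 and 51 counts in WT, 33 and 43 with UNC0642, 42 and 48 in Setdb1 KO, and 9 and 77 in the combined condition. Their summed level was 0.871 and 1.84 CPM, 1.55 and 1.55 CPM, 1.78 and 2.64 CPM, and 0.934 and 2.83 CPM. Every treated condition had a library within or below the WT range. Taken singly, 4 of the 11 genes, Isg15, Ifi44, Mx1 and Mx2, lay above both WT libraries in both Setdb1 KO libraries, on 2 to 7 counts each, and Cxcl10 and Mx2 did so in the combined condition. Ifih1 with UNC0642 and Zbp1 in the combined condition lay below. How often other genes with so few counts lay apart from WT in this way was not computed. These numbers are therefore not a result about the 11 genes. Of the 88 values, 51 were at 3 counts or less and the highest was 24. A difference in these genes smaller than a few counts per library was not detectable at this depth.

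**Figure D1:**
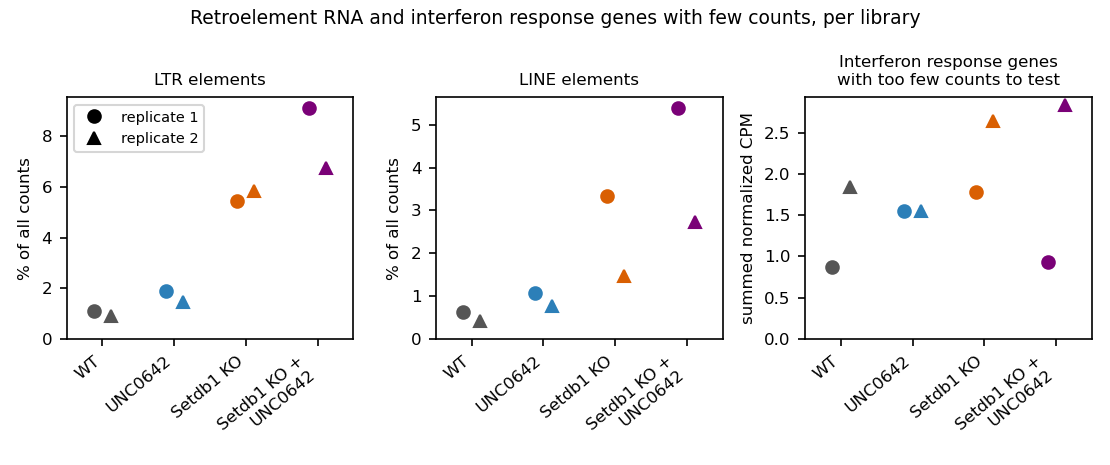
Share of all counts in LTR and LINE elements (left and middle, % of counts) and summed normalized CPM of the 11 genes with too few counts to test (right), by condition; each point is 1 library, circles replicate 1 and triangles replicate 2. LTR elements go from 1.09% and 0.921% in WT to 9.12% and 6.73% in the combined condition. The summed level of the 11 genes lies between 0.871 and 2.83 CPM with overlapping conditions. These genes were set apart by their low counts, so a low level was built in and is no contrast to the retroelements.

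Among the 38 genes, levels per kb of exon in WT ran over several orders of magnitude. Ifitm2 was the highest at 195 ± 131 CPM per kb (mean ± SD, n = 2), followed by Ifitm3 at 109 ± 51.9 and Ifitm1 at 19.6 ± 8.86, which encode membrane proteins that block the entry of viruses. Apobec3 (11.02 ± 0.867), Bst2 (10.7 ± 1.05), Samhd1 (10.3 ± 2.27), Stat2 (9.84 ± 2.63) and Mavs (7.37 ± 4.12 CPM per kb) came next and did not differ from each other beyond their spread. Ifitm2 and Ifitm3 overlapped as well. The bottom of the order was held by Mx2 and Mx1, with Mx1 at 0 counts in both WT libraries. Genes of this kind with near-identical copies, the Ifitm, Oas, Ifit and Mx genes, may share reads with their neighbours.

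**Figure D2:**
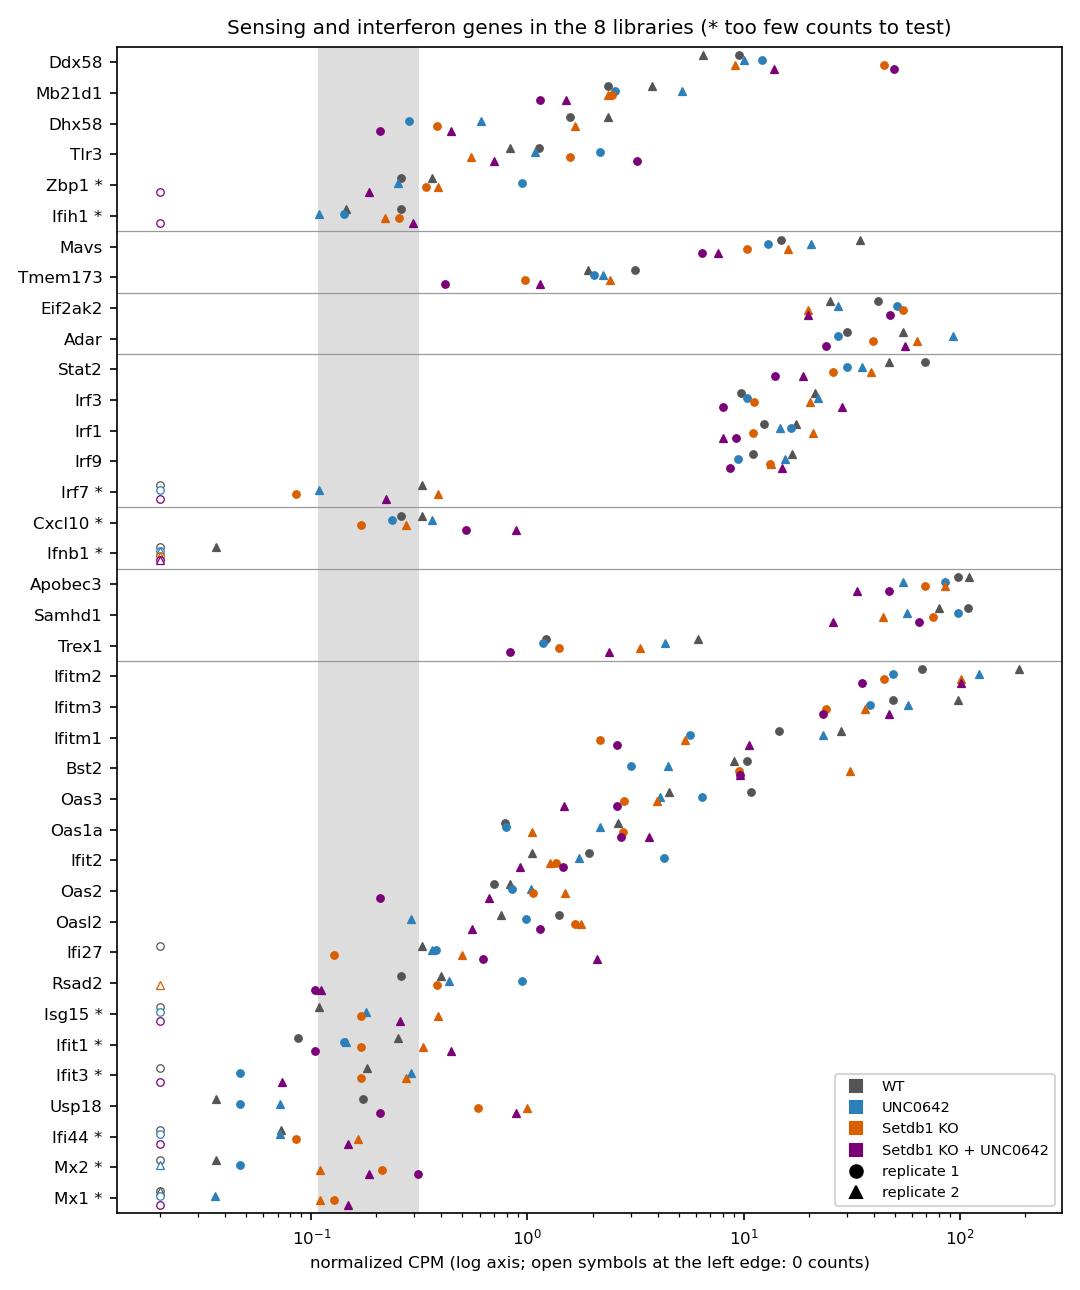
Normalized CPM (log axis) of the 38 genes in each of the 8 libraries, grouped from top to bottom into sensors, adaptors, double-stranded RNA-binding effectors, transcription factors, interferon and chemokine, restriction factors and nucleases, and interferon-stimulated genes; colours mark the condition, circles replicate 1, triangles replicate 2, the grey band the range of the floor of 3 counts (0.108 to 0.311), open symbols 0 counts. Ifitm2, Ifitm3, Apobec3 and Samhd1 are among the higher genes in every library. Stat2 is at 69.3 and 47.3 CPM in WT and at 13.9 and 18.8 CPM in the combined condition. The 11 genes with an asterisk lie below 1 CPM in every library.

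Some of the promoters of these genes carry the core of the response element that the complex with STAT2 and IRF9 reads. The ISRE core was searched as GAAA, any 2 bases, GAAA, and the gamma-activated site (GAS) as TTC, any 3 bases, GAA, on both strands from 250 bases before to 50 bases after the transcription start (RefSeq, GRCm38.p6). Windows were found for 30 of the 38 genes. An ISRE core was present in 15 of them (50%), against 3.99% of all 27025 genes with a window, and a GAS in 8 (26.7%), against 9.55% of all such genes. Per window the shares were 3.44% and 8.30% of 32851. The ISRE core was present in 5 of the 8 genes with a window that had too few counts to test and in 10 of the 22 that were tested. A match is a string of letters and was not tested for binding. The stretches below belong to genes with a match that were called in some comparison without or with the replicate block. Against WT, Ddx58 was called higher, and Stat2, Apobec3, Oas3, Ifitm2 and Ifitm3 were called lower. Bst2 was called higher in Setdb1 KO than with UNC0642. The part of the element in these calls was not tested. The stretches run 5′ to 3′ along the gene's strand, with the ISRE core in capitals on whichever strand it lies. Ddx58 (chr4:40239796-40239865, minus strand) has it just after the start. Oas3 (chr5:120777685-120777774, minus strand), Ifitm2 (chr7:140955962-140956047, minus strand), Bst2 (chr8:71537547-71537642, minus strand), Stat2 (chr10:128270248-128270325, plus strand) and Apobec3 (chr15:79892228-79892317, plus strand) have it upstream, and Ifitm3 (chr7:141010715-141010784, minus strand) has 2 copies after the start. In Bst2, 2 overlapping matches form a single run of capitals.
Ddx58: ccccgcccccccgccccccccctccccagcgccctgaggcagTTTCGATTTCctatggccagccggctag
Stat2: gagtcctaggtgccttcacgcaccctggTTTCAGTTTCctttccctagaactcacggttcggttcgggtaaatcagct
Apobec3: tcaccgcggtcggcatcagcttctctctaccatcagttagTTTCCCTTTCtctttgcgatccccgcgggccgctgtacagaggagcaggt
Oas3: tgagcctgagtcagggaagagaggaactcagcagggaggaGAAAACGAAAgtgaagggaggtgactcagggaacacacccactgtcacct
Bst2: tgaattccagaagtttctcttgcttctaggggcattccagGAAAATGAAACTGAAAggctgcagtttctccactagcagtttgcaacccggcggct
Ifitm2: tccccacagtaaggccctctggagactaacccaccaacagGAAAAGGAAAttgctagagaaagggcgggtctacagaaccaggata
Ifitm3: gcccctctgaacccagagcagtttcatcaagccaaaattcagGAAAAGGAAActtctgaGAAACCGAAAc

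Over the 27 tested genes, the balance was towards lower levels in the combined condition, and a single gene, Stat2, was called without the replicate block. In that condition 20 of the 27 had a fold change below 0 on the log2 scale with a median of -0.79, against -0.06 over all tested genes. With UNC0642 alone 16 of 27 were below 0 (median -0.24, all genes -0.04), and in Setdb1 KO 15 of 27 (median -0.16, all genes -0.06). Without WT replicate 2 these 2 medians turned to 0.23 and 0.066, and without a filter on low counts that of Setdb1 KO was 0.13, so neither has a settled sign. With total counts in place of TMM the median of all genes moved by -0.17 in the combined condition and that of the 27 genes was -0.99. Both libraries of the combined condition lay below both WT libraries for 13 of the 27 genes and above them for 4, where 22.2% and 19.8% of all tested genes did so. In Setdb1 KO the counts were 6 below and 3 above (13.9% and 15.4% of all tested genes), and with UNC0642 alone 4 and 4 (11.3% and 13.1%).

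Without the block, none of the 27 genes was called higher in either KO condition and 1 was called lower, in the combined condition. Over all tested genes, the share called higher was 0.882% in Setdb1 KO and 3.08% in the combined condition, and the share called lower 0.00653% and 0.535%. At an unadjusted p under 0.05, edgeR without the block had 1 of the 27 higher (Usp18) and 2 lower in Setdb1 KO. DESeq2 on all 8 libraries called none there. In the combined condition edgeR without the block had 3 higher (Ddx58, Ifi27 and Usp18) and 5 lower at that threshold. Usp18 and Ifi27 passed the filter on low counts through their KO libraries, so a difference was built in. The share of all tested genes at an unadjusted p under 0.05 was not computed for any comparison, so such counts are not a result about the 27 genes. With the block, 2 of the 27 were called lower and none higher in Setdb1 KO (0.522% lower and 2.8% higher over all tested genes). In the combined condition 9 were called lower and 1 higher with the block (7.63% and 8.09%). In the comparison of UNC0642 alone with WT no gene of the 27 was called without or with the block, where 0% and 0.176% of all tested genes were, and 1 and 5 of the 27 had an unadjusted p under 0.05, all of them lower.

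**Figure D3:**
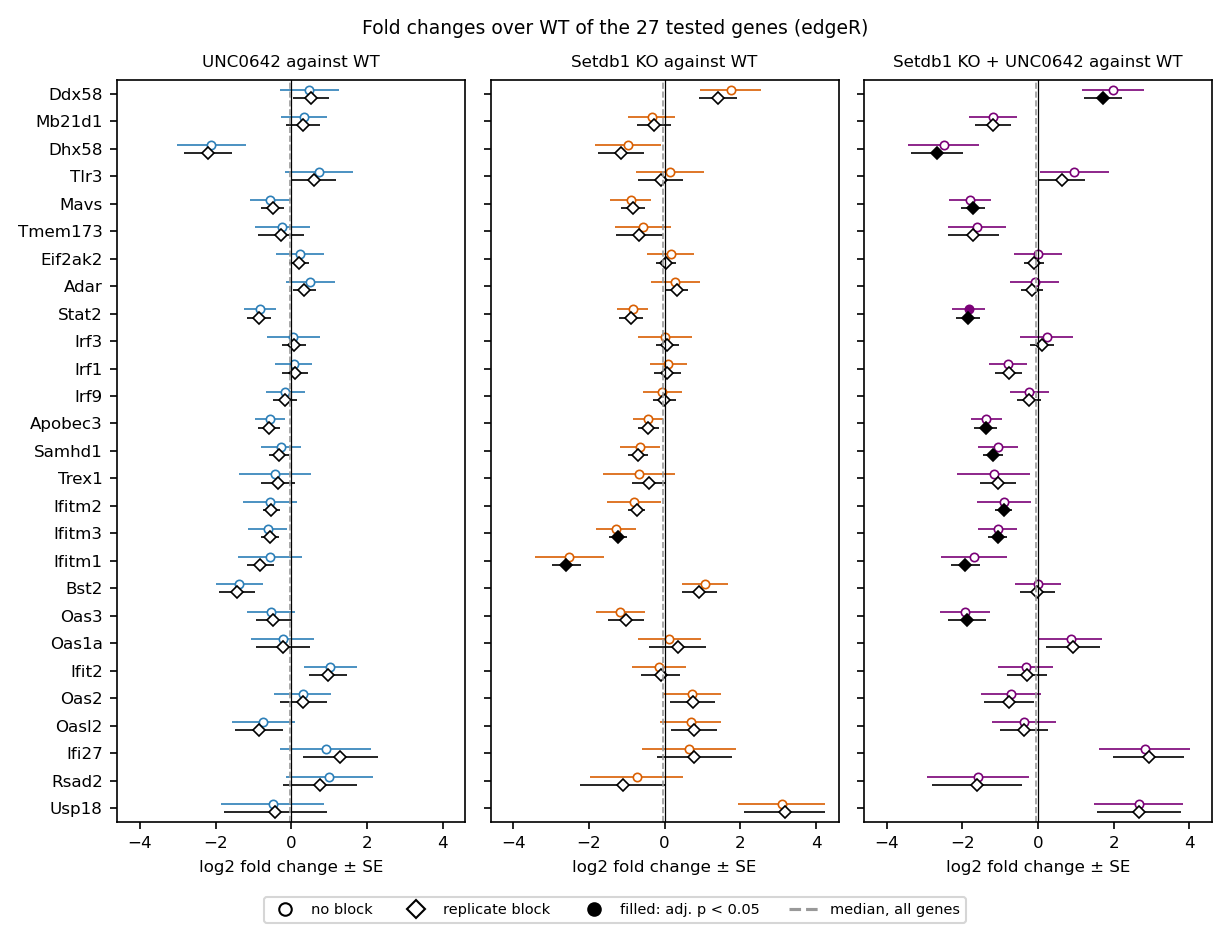
Log2 fold change over WT mESCs ± SE of the 27 tested genes with UNC0642, Setdb1 KO and the combined condition, from the edgeR test without (coloured circles) and with the replicate block (black diamonds); filled symbols have an adjusted p under 0.05 and the dashed line is the median of all tested genes. Without the block, 20 of the 27 genes lie below 0 in the combined condition, and Stat2 is the only filled circle.

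Among the sensors, Ddx58 was called higher and Dhx58 lower in the combined condition, both only with the block. Ddx58 (RIG-I, chromosome 4, 40203773 to 40239828) was at 9.49 and 6.50 CPM in WT, 12.2 and 10.0 with UNC0642, 44.4 and 9.08 in Setdb1 KO, and 49.4 and 13.8 in the combined condition. The 2 high values were the replicate 1 libraries of the KO conditions, and the Setdb1 KO condition overlapped WT. In the combined condition the log2 fold change reached 1.98 (SE 0.81, adjusted p = 0.235), and with the block it was called higher at 1.72 (SE 0.50, adjusted p = 0.0470). Without replicate 1 of that condition the unblocked value was 0.79. The Setdb1 KO value was 1.75 (SE 0.80, adjusted p = 0.603), and 0.19 without replicate 1. The same 2 libraries had the highest shares of LINE counts of all, 3.33% and 5.39%, and L1Md_T was there at 17999 and 36914 CPM against 5062 and 13556 in the replicate 2 libraries. The part of LINE RNA in the Ddx58 level was not tested.

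Dhx58 (LGP2, a regulator of the other receptors in the family) was at 1.57 and 2.35 CPM in WT, 0.282 and 0.612 with UNC0642, 0.381 and 1.65 in Setdb1 KO, and 0.208 and 0.441 in the combined condition. Both conditions with UNC0642 lay below WT without overlap. The combined condition was called lower with the block (log2 fold change -2.66, SE 0.69, adjusted p = 0.0335, without the block 0.201). With UNC0642 alone Dhx58 had the smallest p of the 27 genes in that comparison and was not called (log2 fold change -2.11, SE 0.91, edgeR adjusted p = 1). These levels rest on 2 to 65 counts per library, and an antisense transcript, Dhx58os, overlaps the gene. Tlr3, the endosomal receptor for double-stranded RNA, was between 0.550 and 3.22 CPM with overlapping groups. Mb21d1, which encodes the DNA sensor cGAS, was at 2.35 and 3.75 CPM in WT and 1.14 and 1.51 in the combined condition, where its adjusted p was 0.377 (0.114 with the block). Zbp1, a sensor of Z-form nucleic acids, had between 0 and 20 counts.

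Of the adaptors, Mavs was called lower in the combined condition with the block and Tmem173 was not. Mavs, which RIG-I and MDA5 need to signal, was at 14.9 and 34.4 CPM in WT, 13.0 and 20.5 with UNC0642, 10.4 and 16.0 in Setdb1 KO, and 6.44 and 7.65 in the combined condition. Within each replicate, WT was the highest and the combined condition the lowest. The log2 fold change of the combined condition was -1.81 (SE 0.56, edgeR adjusted p = 0.119), and it was called lower with the block (-1.72, SE 0.32, adjusted p = 0.0104). Without WT replicate 2 the unblocked value was -1.06. Tmem173, which encodes STING, the adaptor of the cGAS pathway, was at 3.13 and 1.91 CPM in WT and 0.415 and 1.14 in the combined condition. It was not called with the block either (log2 fold change -1.71, SE 0.66, adjusted p = 0.110).

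The double-stranded RNA-binding effectors were not called in any comparison. Eif2ak2, which encodes the kinase PKR that halts translation on binding double-stranded RNA, was at 41.8 and 25.2 CPM in WT and 47.3 and 19.8 in the combined condition, a log2 fold change of 0.00 (SE 0.63). Adar, whose product edits adenosines in double-stranded RNA and so keeps MDA5 from binding it, was at 30.1 and 54.9 CPM in WT and 24.0 and 55.7 in the combined condition (log2 fold change -0.09, SE 0.65). Both genes differed more between the 2 replicates of a condition than between conditions.

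Of the transcription factors, Stat2 was the gene that fell. Stat2 (chromosome 10, 128270559 to 128292849), a subunit of the complex that binds the ISRE, was at 69.3 and 47.3 CPM in WT, 30.0 and 35.4 with UNC0642, 25.9 and 38.8 in Setdb1 KO, and 13.9 and 18.8 in the combined condition. All 6 treated libraries lay below both WT libraries, and the combined libraries lay below the other 6. Stat2 fell by 1.83 on the log2 scale in the combined condition (SE 0.43, edgeR adjusted p = 0.0499, or 0.00743 under the block), and DESeq2 on all 8 libraries gave an adjusted p of 0.00427. The edgeR call was at the threshold: it was lost without any 1 of the 8 libraries (adjusted p between 0.0602 and 0.234, log2 fold change between -2.07 and -1.54), with total counts (0.0811) and with genes only (0.0611). The values of UNC0642 alone and Setdb1 KO alone were -0.83 (SE 0.42) and -0.85 (SE 0.42), neither of which was called.

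The other tested factors were not called against WT. Irf1, a factor induced by interferon gamma, was at 12.4 and 17.5 CPM in WT and 9.24 and 8.05 in the combined condition (log2 fold change -0.79, SE 0.49, adjusted p = 0.464, with the block 0.169). Irf3, whose product RIG-I and MDA5 reach through MAVS, had log2 fold changes between 0.01 and 0.23 in the 3 comparisons with WT, and Irf9 between -0.23 and -0.06, with SE of 0.71 and 0.51. Counts of Irf3 may hold reads of the overlapping antisense gene Bcl2l12, and those of Irf9 reads of Rnf31, since the counting was run with default parameters and how these and the library kit treat strand is not given in the sources used here.

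Of the restriction factors and nucleases, Apobec3 and Samhd1 were called lower in the combined condition with the block and Trex1 was not. Apobec3, a cytidine deaminase that restricts retroviruses and endogenous retroelements, was at 98.4 and 110 CPM in WT, 85.9 and 54.9 with UNC0642, 69.2 and 85.2 in Setdb1 KO, and 47.2 and 33.6 in the combined condition. None of the 6 treated libraries reached the lower WT value. It was called lower in the combined condition with the block (log2 fold change -1.39, SE 0.29, adjusted p = 0.0166, without the block -1.37, SE 0.40, adjusted p = 0.103). Counts of Apobec3 may hold reads of D730005E14Rik, which overlaps it on the same strand, or of the antisense gene Cbx7. Samhd1, which depletes the nucleotides that reverse transcription needs, was at 109 and 79.8, 98.1 and 57.3, 75.5 and 44.4, and 64.7 and 26.0 CPM in the same order. Within both replicates the order from high to low was WT, UNC0642, Setdb1 KO and the combined condition, where it was called lower with the block (-1.18, SE 0.26, adjusted p = 0.0203, without the block 0.346). Trex1, a nuclease that degrades retroelement DNA, was at 1.22 and 6.13 CPM in WT and 0.830 and 2.39 in the combined condition, where it was not called (adjusted p = 0.611, with the block 0.160). It shares exons with Atrip, to which its reads may belong.

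Among the Ifitm genes, the most abundant of the list, Ifitm1 and Ifitm3 were called lower in both KO conditions with the block and Ifitm2 in the combined condition alone. Ifitm1 was at 14.5 and 28.3 CPM in WT, 5.64 and 23.3 with UNC0642, 2.16 and 5.34 in Setdb1 KO, and 2.60 and 10.6 in the combined condition. Both KO conditions lay below WT without overlap. With the block it was called lower in Setdb1 KO (log2 fold change -2.60, SE 0.39, adjusted p = 0.00713, without the block 0.366) and in the combined condition (-1.92, SE 0.38, adjusted p = 0.0127, without the block 0.363). Ifitm3 was at 48.9 and 98.6 CPM in WT, 38.6 and 57.3 with UNC0642, 24.0 and 36.4 in Setdb1 KO, and 23.3 and 47.0 in the combined condition. It too lay below WT in both KO conditions and was called lower there with the block (-1.23, SE 0.24, adjusted p = 0.0266, and -1.07, SE 0.24, adjusted p = 0.0218, without the block 0.486 and 0.327). Ifitm2 was at 67.1 and 188 CPM in WT, 49.3 and 123 with UNC0642, 44.5 and 101 in Setdb1 KO, and 35.3 and 101 in the combined condition. Its conditions overlapped because replicate 2 was higher throughout, and it was called lower with the block in the combined condition alone (-0.91, SE 0.22, adjusted p = 0.0267, without the block 0.595). Without WT replicate 2 the unblocked value was 0.034. Gm45717, annotated on the same strand, overlaps most of Ifitm2, and reads of the 2 genes may not be separable.

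The fibroblast markers Col1a1, Col1a2 and Col3a1 were higher in replicate 2 in all 4 conditions. In the combined condition Thy1, Lum, Postn and Dcn went the other way. They were at 2.39, 2.91, 1.04 and 0.415 CPM in replicate 1 and 1.21, 1.43, 0.368 and 0.0735 in replicate 2. Thy1 in WT, and Lum and Postn in Setdb1 KO, went the other way too. The summed level of the 7 fibroblast markers was 4.18 to 9.65 CPM in the replicate 1 libraries and 17.5 to 20.6 CPM in the replicate 2 libraries of the 4 conditions. By condition the sums were 5.92 and 18.3 CPM in WT, 4.18 and 17.7 with UNC0642, 4.403 and 20.6 in Setdb1 KO, and 9.65 and 17.5 in the combined condition. Of the 7, 4 were above 3 counts in a WT library and 7 in a library of the combined condition. Lum had 0 and 0 counts in WT, 10 and 0 in Setdb1 KO and 28 and 39 in the combined condition, Postn had 0 and 1 in WT and 10 and 10 in the combined condition, and Dcn had 0 in both WT libraries and at most 4 elsewhere. The cells were grown without feeders by their labels. Whether fibroblasts were present was not tested, nor was any part of them in the replicate difference of the Ifitm genes or in their lower level in KO cells. Of 7 macrophage and leukocyte markers, 4 were above 3 counts in every condition (Laptm5, Cd68, Csf1r and Itgam), with summed levels of 25.7 and 53.3 CPM in WT, 37.2 and 58.9 with UNC0642, 31.3 and 38.4 in Setdb1 KO, and 35.4 and 62.0 in the combined condition, most of it Laptm5. Itgam was at 0.958 and 0.469 CPM in WT and 1.87 and 4.93 in the combined condition. The defining markers Ptprc, Lyz2 and Tyrobp had between 0 and 3 counts in every library. Markers of cells that can arise from mESCs also varied. The 6 primitive endoderm markers summed to 10.6 and 39.8 CPM in WT, 56.7 and 58.9 with UNC0642, 11.3 and 19.6 in Setdb1 KO, and 21.2 and 16.9 in the combined condition, with both UNC0642 libraries above WT. Taken singly, Pdgfra (18.1 and 15.9 against 2.70 and 5.95 CPM) and Foxa2 lay above WT with UNC0642. Gata6, Gata4, Sox17 and Sox7 overlapped WT there. The 7 trophectoderm markers summed to 75.9 and 82.2 CPM in WT, 46.8 and 54.3 with UNC0642, 132 and 59.3 in Setdb1 KO, and 67.9 and 27.1 in the combined condition, with both conditions that received UNC0642 below WT. Of these markers, Eomes and Tfap2c lay below WT in both conditions with UNC0642. Krt8 lay above WT in the combined condition (10.2 and 6.14 against 3.48 and 5.63 CPM), and Gata3 and Elf5 with UNC0642 alone. In Setdb1 KO, Krt8 (12.8 and 12.1 CPM) and Krt18 lay above WT. The part of any of these cells in the values of the 38 genes was not tested.

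**Figure D4:**
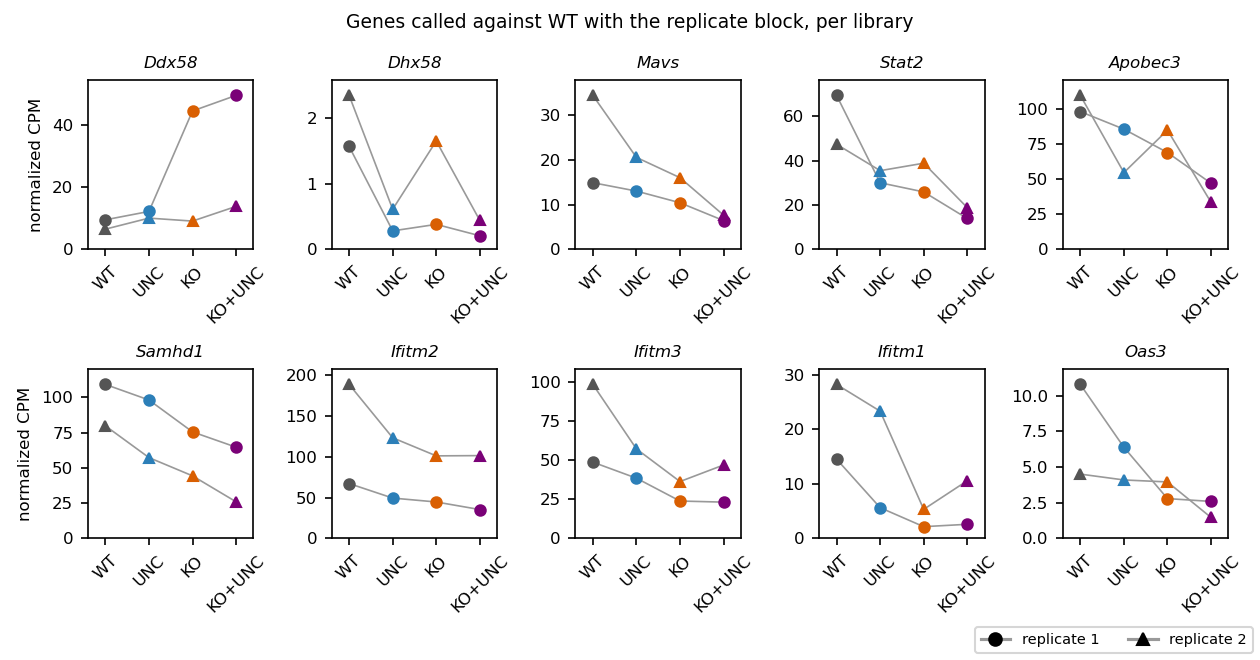
Normalized CPM of the 10 genes called against WT with the replicate block, by condition (UNC: UNC0642-treated; KO: Setdb1 KO; KO+UNC: the combined condition); each point is 1 library, and grey lines join libraries with the same replicate number (circles 1, triangles 2). Mavs, Stat2 and Samhd1 are lowest in the combined condition within both replicates, Ifitm1 and Ifitm3 are low in both KO conditions, and Ddx58 is high only in the replicate 1 libraries of the KO conditions, at 44.4 and 49.4 CPM.

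Bst2 was called higher in Setdb1 KO than with UNC0642 when the block was included. It encodes tetherin, which holds budding virus particles at the cell surface, and was at 10.4 and 9.02 CPM in WT, 3.01 and 4.46 with UNC0642, 9.53 and 31.0 in Setdb1 KO, and 9.65 and 9.67 in the combined condition. The UNC0642 libraries were the lowest of the 8 and a single Setdb1 KO library was the highest. In the direct comparison Setdb1 KO was higher than UNC0642-treated cells with the block (log2 fold change 2.35, SE 0.48, adjusted p = 0.0436, without the block 0.212), and without Setdb1 KO replicate 2 the unblocked value was 1.32 in place of 2.43. Against WT, the unblocked values were -1.37 (SE 0.61) for UNC0642 and 1.06 (SE 0.60) for Setdb1 KO, neither called. Ifitm1 was lower in Setdb1 KO than with UNC0642 alone with the block (-1.78, SE 0.38, adjusted p = 0.0491, without the block 0.861). These were the only calls among the 27 genes in this comparison, where 0.431% of all tested genes were called without the block and 1.66% higher and 0.438% lower with it.

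The 2',5'-oligoadenylate synthetase genes, whose products activate RNase L on binding double-stranded RNA, gave a single call, Oas3 lower in the combined condition with the block. Oas3 was at 10.8 and 4.51 CPM in WT, 6.39 and 4.10 with UNC0642, 2.79 and 3.96 in Setdb1 KO, and 2.60 and 1.47 in the combined condition. It lay below WT in both KO conditions and was called lower with the block in the combined one (log2 fold change -1.87, SE 0.49, adjusted p = 0.0352, without the block 0.158). Oas1a was at 0.784 and 2.63 CPM in WT and 2.70 and 3.64 in the combined condition, with both values above WT and no call (log2 fold change 0.86, SE 0.82, edgeR adjusted p = 0.671). Oas2 was at 0.697 and 0.830 CPM in WT, 1.06 and 1.49 in Setdb1 KO and 0.208 and 0.662 in the combined condition. Oasl2 was at 1.39 and 0.758, 1.65 and 1.76, and 1.14 and 0.552 CPM in the same order, and at 0.987 and 0.288 with UNC0642. Both genes lay above both WT libraries in Setdb1 KO, and Oas2 lay below them in the combined condition. Neither was called in any comparison.

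By summed counts alone, Usp18 was higher in both KO conditions and Ifi27 in the combined condition, and neither was called. Usp18, which removes ISG15 from proteins and damps interferon receptor signalling, had 2 and 1 counts in WT, 1 and 2 with UNC0642, 14 and 18 in Setdb1 KO, and 2 and 24 in the combined condition. It passed the filter on low counts through its KO libraries, so a difference was built into its being tested. The ratio of its summed counts over WT, corrected for library size, was 10.0 in Setdb1 KO (exact 95% interval 3.13 to 51.1, 32 against 3 counts) and 9.22 in the combined condition (2.83 to 47.6, 26 against 3 counts). In the combined condition 24 of the 26 counts came from replicate 2, and replicate 1 (0.208 CPM) was near WT replicate 1 (0.174 CPM). The intervals pool the 2 libraries of a condition and leave out the spread between them. They are no support for a difference, since the gene was tested through its KO libraries. Across replicates Usp18 was not called (log2 fold change 3.09, SE 1.16, edgeR adjusted p = 0.406, with the block 0.161, for Setdb1 KO). An antisense transcript, Gm44148, overlaps Usp18, and its reads may be counted there. Ifi27, a mitochondrial protein gene, had 0 and 9 counts in WT, 8 and 10 with UNC0642, 3 and 9 in Setdb1 KO, and 6 and 57 in the combined condition. The ratio over WT was 1.25 (0.484 to 3.36) in Setdb1 KO and 7.45 (3.69 to 17.0) in the combined condition. Most of its counts in the combined condition came from replicate 2, and its adjusted p was 0.255 (0.0644 with the block). Ifi27 too passed the filter on low counts through its KO libraries alone. A difference was thus built into its being tested, and its interval is no support for one. Mx2 had 0 and 1 counts in WT and between 2 and 5 in each KO library, a ratio of 6.57 (0.843 to 296) in Setdb1 KO and 8.51 (1.14 to 378) in the combined condition. Mx2 is annotated as a polymorphic pseudogene and was not tested. Ratios were computed for Usp18, Ifi27 and Mx2 only, and the Mx2 interval rests on 1 count in WT. It is no support for a difference either. The other interferon-stimulated genes with reads, Ifit2 at 0.919 to 4.28 CPM and Rsad2 at 0 to 0.940 CPM, were not called. Ifit3, Ifi44 and Mx1 had at most 8, 4 and 4 counts in any library.

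Adding UNC0642 to Setdb1 KO mESCs gave no call among the 27 genes without or with the block (0% and 0.124% of all tested genes), and 20 of the 27 were below 0 with a median of -0.43. By the same edgeR test, 2 of the 27 had an unadjusted p under 0.05, Apobec3 (log2 fold change -0.93, SE 0.40) and Stat2 (-0.98, SE 0.42), both lower. A test of the interaction, whether both treatments together differ from the sum of each alone, called 0 of the 27 genes and 0% of all tested genes in either fit. At an unadjusted p under 0.05 it had no gene of the 27 without the block and 1 with it, Ifitm1 (1.49, SE 0.52, edgeR adjusted p = 1).

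A wider list of 45 further genes of the pathway, of which 35 could be tested, was looked at for the same calls. Without the block, 1 of the 35 (2.86%) was called, Rnf125, higher in the combined condition, where 3.08% of all tested genes were. Its product is a ubiquitin ligase that marks RIG-I and MAVS for degradation. It was at 16.6 and 14.3 CPM in WT, 28.2 and 23.5 with UNC0642, 107 and 38.4 in Setdb1 KO, and 91.2 and 63.0 in the combined condition. All 6 treated libraries lay above WT. Rnf125 rose by 2.32 on the log2 scale in the combined condition (SE 0.53, edgeR adjusted p = 0.0449) and by 2.104 in Setdb1 KO with the block (SE 0.35, adjusted p = 0.0113, without the block 0.105). In the combined condition with the block, Rnf125, Trim30a and Xaf1 were among those called higher (8.09% of all tested genes), and 3 of the 35 (8.57%) were called lower, Traf3, Tyk2 and Ifi30 (7.63% of all tested genes). Trim30a had 0 and 3 counts in WT and 13 and 36 in the combined condition. It passed the filter on low counts through its KO libraries alone, so a difference was built into its being tested. The share called lower was near that of all tested genes, as was the share called without the block. Traf3, which couples MAVS to the kinases that activate IRF3, was at 23.4 and 28.9 CPM in WT and 10.9 and 7.68 in the combined condition (-1.52 with the block, SE 0.30, adjusted p = 0.0129, without the block 0.0994). Tyk2, a kinase of the interferon receptor, was at 14.4 and 47.1 CPM in WT and 6.02 and 14.2 in the combined condition (-1.52 with the block, SE 0.28, adjusted p = 0.00992, without the block 0.299).

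The interferon genes themselves were almost without reads. Of 21 interferon ligand genes in the files, 15 had 0 counts in all 8 libraries and 2 had more than 3 counts in any library. One of these was Ifna13, with at most 6 counts. The other was Ifnz, a gene of the mouse interferon zeta family, which was chosen for mention after its values were seen. It had 0 counts in the 4 libraries of WT and UNC0642-treated mESCs, 7 and 10 counts in Setdb1 KO, and 4 and 18 counts in the combined condition. Its mean level was 2.29 times the floor of 3 counts per WT library in Setdb1 KO and 2.91 times in the combined condition. These multiples carry no error of the KO counts, so they are not a lower limit. Ifnz passed the filter on low counts through its KO libraries alone, so a difference was built into its being tested and its p is not given. Related interferon genes lie in the same cluster, so its reads may be shared with copies that the counting could not separate.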

How the data were processed

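Poly(A) RNA of mESCs was sequenced in 4 conditions with 2 replicates each, grouped by the sample labels. The authors trimmed reads with Trim Galore 0.3.7, mapped them to GRCm38 with TopHat2 and counted them with TEtranscripts. The deposited files hold unnormalized counts for genes and for transposable element subfamilies. TEtranscripts divides a read with several positions among them.

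Features were filtered with filterByExpr (minimum count 10, minimum total 15), scaled by TMM (factors 0.810 to 1.20) and fitted over all 8 libraries with edgeR 4.0.16 in R 4.3.3, with p-values adjusted over 15313 genes and 932 subfamilies. Log2 fold changes used a prior count of 0.125. Replicate numbers are shared by all conditions in the labels. The deviations of same-numbered libraries from their group means correlated at 0.381 to 0.729 over the 6 pairs of conditions, so the numbers were taken as pairing the libraries, and a fit with that number as a replicate block was run beside the main one. Alternatives were DESeq2 1.42.0, other normalizations, no filter, a prior count of 2, genes only, a fold change above 10 and leaving out each library. The fits were tested on simulated data. Sequences came from RefSeq (GRCm38.p6) and positions from GENCODE on GRCm38. Python 3.11.15 was used for tables and figures.

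The 38 genes, the further pathway list and the markers were chosen with earlier results of these data known. Named genes are those called in any comparison without or with the block, the 3 with the smallest p per comparison with WT, and Ddx58, Ifih1, Ifnb1, Cxcl10, Isg15, Ifit1 and Irf7; other genes are given by their values for completeness. A result that rests on an item withheld for evaluation is not reported here.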

Additional observations from a re-analysis of the deposited data

How the results depend on the processing

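The number of the 27 tested genes called depended on the test. In UNC0642-treated Setdb1 KO against WT mESCs, 1 gene was called lower without the replicate block and 9 with it, 2 by DESeq2 on all 8 libraries, 0 with total counts, 0 with genes only, 0 at a fold change above 10 and 0 whenever a library was left out. With the replicate block 1 gene was called higher there. In Setdb1 KO against WT mESCs 2 were called lower with the block and 1 by DESeq2 on the 4 libraries compared. In Setdb1 KO against UNC0642-treated mESCs 1 was called higher with the block and by DESeq2 on all 8 and on 4 libraries, and 1 lower with the block. Subfamilies called higher were 46 without and 189 with the block in Setdb1 KO (DESeq2 123 on all 8 and 107 on 4 libraries), and 113 and 383 in the combined condition (DESeq2 214 and 185). Leaving out a library gave 0 to 50 and 0 to 116, the 0 coming without a WT library in Setdb1 KO and without WT replicate 1 in the combined condition. In UNC0642-treated mESCs DESeq2 called 4 and 5 subfamilies and edgeR without a filter 2.

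The median log2 fold change of the tested genes in the combined condition was below 0 in every alternative run (-0.99 with total counts, -0.37 without a filter, where more genes enter, -1.06 to -0.48 without 1 library). In Setdb1 KO mESCs it turned to 0.13 without a filter and was -0.37 to 0.07 without 1 library, and in UNC0642-treated mESCs it was -0.27 with the block, -0.17 with total counts, -0.21 with genes only and -0.35 to 0.23 without 1 library, so neither has a settled sign. For UNC0642-treated Setdb1 KO against Setdb1 KO it was -0.51 with the block, -0.47 and -0.49 by DESeq2 on 8 and 4 libraries, -0.55 with total counts, -0.41 with a prior count of 2 and -0.81 to -0.18 without 1 library. For Setdb1 KO against UNC0642 it was -0.072 with the block, -0.30 with total counts, -0.022 without a filter and -0.54 to 0.085 without 1 library. Of 20 gene results named, 1 changed direction: Ifitm2 in the combined condition was 0.034 without WT replicate 2 and -1.87 at the other end of its range. The cause was not tested. In fits without 1 library the remaining one of its condition is assumed to vary like the others. The replicate block moved 13 of the 20 past the threshold. That number follows from how the 20 were chosen, since a call with the block was a reason to be named. The 11 genes without enough counts limit what could be seen of an interferon response to changes of more than a few counts per library.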
